A study of Mus musculus with 21 samples.

Results

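The 9 genes described here were Ly6a, Ly6c1, Ly6e, Cd34, Pi16, Dpp4, Thy1, Pcolce2 and Clec3b, taken from the 52636 genes of the count table as the rows whose mouse Ensembl identifiers carry these symbols. They are genes of sorting antigens and of markers for fibroblast progenitors of the adventitia, the loose tissue around vessels and airways. Of the 9, 8 passed the filter on low counts and were among the 16197 genes tested; Dpp4 did not pass. RNA-seq was done on mouse lung fibroblasts positive for Ly6C and Sca-1, in 21 libraries of total RNA made with a kit that keeps strand. The 7 groups, with 3 libraries each, were cells given DMSO (a solvent), CHIR, TGFb1, TGFb1 + DMSO, TGFb1 + CHIR, TGFb1 + IL1b, and TGFb1 + TNF. TGFb1 is the cytokine best known for driving matrix production and scarring, and IL1b and TNF are inflammatory cytokines. CHIR is given only by that name, which commonly stands for an inhibitor of the kinase GSK3. Information on strain, age, genotype, dose, time and the origin of replicates was not given in the sources used here, so p-values measure only the spread between these libraries, which may be technical.

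Ly6 proteins are small, disulfide-bonded surface proteins tied to the membrane by a glycosylphosphatidylinositol (GPI) anchor, and many of their genes lie together on mouse chromosome 15. Ly6a encodes Sca-1, and Ly6c1 and its neighbour Ly6c2 encode the proteins seen by Ly6C antibodies, so the pair of sorting antigens of these cells is among the genes described. In tissue, fibroblasts of the adventitia are known for carrying Sca-1, CD34, Pi16 and Dpp4, and are regarded as a reserve from which other fibroblasts can arise. The label of surface genes does not hold for all 9, since Clec3b (tetranectin) and Pcolce2 (a procollagen C-proteinase enhancer) encode secreted proteins.

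Library totals ran from 19796379 to 29276382 counts, with a median of 26926130. Fibroblast markers dominated in all groups: 9 fibroblast markers summed to 45700 to 98400 CPM (counts per 1000000 counts of the library, with a TMM scaling factor) in single libraries, against 1.56 to 9.92 CPM for 16 immune markers and 0.989 to 6.26 for 10 epithelial ones. Single fibroblast markers differed in level and direction. Col1a1 averaged 12600 CPM in DMSO and 27700 in TGFb1, but Pdgfra 1480 and 424 and Lum 9.24 and 0.388. In TGFb1 + TNF, Pdgfra averaged 76.8 CPM and Lum 0.0243. The 11 mural and smooth muscle markers, which include Pdgfrb of fibroblasts, summed to 913 CPM in TGFb1 + TNF to 1890 in TGFb1, with Cspg4 between group means of 7.24 in CHIR and 273 in TGFb1 + TNF, and 7 mesothelial markers, mostly Wt1, to 8.64 to 33.2. The part of such cells in the results below was not tested. Lung endothelium is known to carry Ly6a, Ly6c1, Cd34 and Clec3b too. The 12 endothelial markers summed to 6.68 to 26.8 CPM. These markers differed in level, with no count for Cldn5 in any library and at most 0.821 CPM for Pecam1. Kdr averaged 20.4 CPM in TGFb1 + CHIR, Tek 6.71 in DMSO and Cdh5 4.54 in TGFb1 + TNF. In single libraries Egfl7 reached 3.37 CPM and Vwf 2.67. The part of endothelial cells in the levels below was not tested. Ptprc, the marker of all white blood cells, had no count in any library.

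Ly6c1 has a near copy beside it, which bears on what its counts stand for. The coding sequences of Ly6c1 and Ly6c2, each of 396 bases, were 97.7% identical with 9 different bases, and the first 120 bases hold 6 of these differences, printed here from the GENCODE M21 transcripts (GRCm38) with the differing bases in capitals.
Ly6c1: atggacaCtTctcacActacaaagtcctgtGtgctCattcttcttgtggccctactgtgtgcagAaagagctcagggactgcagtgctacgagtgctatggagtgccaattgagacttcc
Ly6c2: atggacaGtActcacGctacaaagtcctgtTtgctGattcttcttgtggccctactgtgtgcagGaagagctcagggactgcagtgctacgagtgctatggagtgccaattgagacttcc
Of all 50-base windows of the Ly6c1 transcripts, 32.8% also occur in another gene, 379 of them in Ly6c2 and 195 in Ly6a. The share was 19.0% for Ly6a, under 4% for Cd34 (2.14%), Pi16 (3.88%) and Dpp4 (2.92%), and no window of Ly6e, Thy1, Pcolce2 or Clec3b was shared. How reads that match several genes were counted by the authors was not given in the sources used here. Gapdh, a highly expressed gene with many pseudogene copies, held 45 counts in all libraries together, and the levels of Ly6a and Ly6c1 are uncertain by the part of their reads that match a copy. Ly6c2 itself held 18 counts in all 21 libraries, and adding them to Ly6c1 changed none of the calls made for Ly6c1. So few counts could hardly change a call. The sum also cannot restore reads matching both copies if these were left uncounted, so it does not settle that uncertainty. Antisense genes overlap Cd34, Dpp4 and Pcolce2, of which the one over Cd34 had 118 counts against 7710 for Cd34 itself.

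Promoter windows of 250 bases before to 50 after the start site came from a set of RefSeq windows (GRCm38.p6). The set used here held windows for 5 of the 9 genes: Ly6c1, Cd34, Pi16, Dpp4 and Pcolce2. Those of Ly6c1 (its first listed start, chr15:75048788-75049087, minus strand), Cd34 (chr1:194938571-194938870, plus strand) and Pcolce2 (chr9:95637378-95637677, plus strand) are shown because these genes answered TNF in opposite directions. They run 5′ to 3′ on the gene's strand, and capitals mark matches to the motifs searched.
Ly6c1: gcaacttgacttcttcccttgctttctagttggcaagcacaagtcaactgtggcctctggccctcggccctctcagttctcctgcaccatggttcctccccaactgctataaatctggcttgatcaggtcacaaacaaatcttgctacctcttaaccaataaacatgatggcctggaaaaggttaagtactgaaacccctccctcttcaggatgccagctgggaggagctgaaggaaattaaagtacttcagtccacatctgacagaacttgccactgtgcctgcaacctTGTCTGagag
Cd34: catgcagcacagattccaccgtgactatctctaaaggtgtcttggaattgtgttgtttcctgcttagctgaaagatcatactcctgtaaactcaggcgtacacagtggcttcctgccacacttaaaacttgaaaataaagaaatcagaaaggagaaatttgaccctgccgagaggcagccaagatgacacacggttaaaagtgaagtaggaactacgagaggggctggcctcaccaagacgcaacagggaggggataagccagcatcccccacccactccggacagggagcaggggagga
Pcolce2: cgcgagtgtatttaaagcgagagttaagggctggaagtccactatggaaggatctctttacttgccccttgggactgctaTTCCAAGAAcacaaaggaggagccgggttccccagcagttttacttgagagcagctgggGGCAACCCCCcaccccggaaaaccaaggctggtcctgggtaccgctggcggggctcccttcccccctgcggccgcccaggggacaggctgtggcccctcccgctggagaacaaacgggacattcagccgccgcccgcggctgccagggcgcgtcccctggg
On both strands, 7 motifs were searched: AP-1 as TGANTCA, TCF/LEF as CTTTGAT, the SMAD palindrome GTCTAGAC, the SMAD box CAGACA, NF-kB as GGG, 3 free bases, T, 1 free base and CC, the interferon-stimulated response element (ISRE) as GAAA, 2 free bases and GAAA, and the STAT site (GAS) as TTCNNNGAA. The Pcolce2 window held 1 NF-kB match at position -111 from the start, a motif found in 17.4% of 32851 promoter windows, and 1 GAS match at -170, found in 8.3%. In the Ly6c1 window the SMAD box matched at position 40, a motif found in 21% of windows. An overlapping window at a second listed Ly6c1 start held SMAD box matches at -134 and 3 and an NF-kB match at -81. Its match at -134 is the same stretch of bases as that of the first window. Within a window, no matches overlapped each other. The Cd34 and Pi16 windows held none of the 7, and that of Dpp4 held an ISRE match at -52, found in 3.44%. AP-1, TCF/LEF and the SMAD palindrome, present in 7.81%, 3.73% and 0.213% of windows, matched in none of these 5 windows. A match of letters is a description and not a binding site.

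Ly6a (ENSMUSG00000075602, chr15:74994877-74998031, minus strand, GRCm38) stood at 136, 146 and 143 CPM in the 3 DMSO libraries and at 57.6, 59.1 and 65.2 CPM with CHIR. It stood at 97.5, 83.1 and 79.3 CPM with TGFb1, at 67.6, 70.5 and 61.6 with TGFb1 + DMSO, and at 8.71, 7.95 and 6.82 with TGFb1 + CHIR. DMSO was the highest group and TGFb1 + CHIR the lowest, with means 18.1-fold apart. With IL1b added to TGFb1 it was at 77.6, 75.2 and 74.9 CPM, and with TNF at 29.5, 23.6 and 27.3. Of neighbours in the order of groups, libraries overlapped only between TGFb1 + DMSO and CHIR. In bulk RNA, fewer cells expressing a gene and less RNA per cell cannot be told apart, for Ly6a or any gene below.

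Ly6c1 (ENSMUSG00000079018, chr15:75044018-75048830, minus strand) followed the same order of groups as Ly6a, over a wider range. It was at 49.5, 51.7 and 48.2 CPM with DMSO, 10.5, 11.3 and 13.2 with CHIR, and 27.7, 23.3 and 21 with TGFb1. It was at 16.5, 14.7 and 17.6 CPM with TGFb1 + DMSO and at 0.556, 0.79 and 0.764 with TGFb1 + CHIR, where the libraries held 15, 16 and 15 counts. IL1b with TGFb1 gave 19.4, 18 and 20 CPM, and TNF with TGFb1 gave 5.8, 5.66 and 6.62. No neighbouring groups overlapped, and the highest and lowest means were 70.8-fold apart. This gene of a sorting antigen was thus down to 46 counts in the 3 TGFb1 + CHIR libraries together, against 4186 in those with DMSO.

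Ly6e (ENSMUSG00000022587, chr15:74955051-74959905, plus strand), a widely expressed interferon-responsive member of the family, had the narrowest range of the Ly6 trio, with group means 3.69-fold apart. It stood at 171, 208 and 191 CPM with DMSO, 146, 157 and 164 with CHIR, and 242, 230 and 221 with TGFb1. Levels were 245, 243 and 237 CPM with TGFb1 + DMSO, 102, 105 and 106 with TGFb1 + CHIR, 257, 233 and 250 with TGFb1 + IL1b, and 435, 353 and 371 with TGFb1 + TNF. TGFb1 + TNF was highest and TGFb1 + CHIR lowest without overlap, while the 3 other groups with TGFb1 overlapped each other. Per kilobase of exon the order in DMSO was Ly6a at 118 CPM, Ly6e at 50.2 and Ly6c1 at 29.7. The length used was that of all annotated exons joined, 1205 bases for Ly6a, 3784 for Ly6e and 1677 for Ly6c1. Which transcripts were expressed was not tested, and reads of Ly6a and Ly6c1 that match a copy may be uncounted, so this order is uncertain. In TGFb1 + TNF that order was changed, with Ly6e at 102 CPM per kilobase, Ly6a at 22.2 and Ly6c1 at 3.59.

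Cd34 (ENSMUSG00000016494, chr1:194938819-194961279, plus strand) encodes a sialomucin of blood progenitors, vessels and adventitial fibroblasts. It was at 19.6, 19.9 and 22.9 CPM with DMSO, 12.7, 11.4 and 13.5 with CHIR, 5.11, 6.53 and 6.49 with TGFb1, and 5.94, 4.67 and 3.84 with TGFb1 + DMSO. It was at 2.74, 3.36 and 2.75 CPM with TGFb1 + CHIR, 12.5, 10.5 and 10.6 with TGFb1 + IL1b, and 39.2, 37.7 and 37.5 with TGFb1 + TNF. All 3 TNF libraries were above every DMSO library, and the highest and lowest means were 12.9-fold apart. Libraries of CHIR overlapped those of TGFb1 + IL1b, and those of TGFb1 overlapped TGFb1 + DMSO.

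Thy1 (ENSMUSG00000032011, chr9:44043384-44048579, plus strand), which encodes the GPI-anchored protein CD90 of fibroblasts and T cells, varied least, with means 2.02-fold apart. It stood at 65.7, 65.4 and 66 CPM with DMSO, 68.4, 66.4 and 66.5 with CHIR, 84.8, 77.7 and 78.1 with TGFb1, and 54.4, 55.2 and 52.8 with TGFb1 + DMSO. It stood at 64.5, 65.3 and 73.5 CPM with TGFb1 + CHIR, 57.4, 56 and 54.1 with TGFb1 + IL1b, and 39.8, 40 and 39.6 with TGFb1 + TNF. TGFb1 was the highest group, TGFb1 + TNF the lowest, and the libraries of TGFb1 did not overlap those of TGFb1 + DMSO. Dpp4 (ENSMUSG00000035000, chr2:62330073-62412231, minus strand), the surface protease CD26, was close to undetected with 21 counts in all libraries. Of these, 2 lay in each DMSO library, 1 in CHIR, 3 in 1 TGFb1 library, 1 and 6 in 2 TGFb1 + CHIR libraries, and 4 in 1 TGFb1 + IL1b library. TGFb1 + DMSO and TGFb1 + TNF had no count, which allows up to 0.0365 and 0.0378 CPM over the group by counting error (3 counts), so no fold of Dpp4 is given.

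Pi16 (ENSMUSG00000024011, chr17:29317680-29330593, plus strand), peptidase inhibitor 16, marks adventitial fibroblasts in many tissues, yet here it was low without TGFb1. It was at 1.74, 1.95 and 2.03 CPM with DMSO, 1.53, 1.29 and 1.02 with CHIR, 8.07, 9.71 and 12.7 with TGFb1, and 8.89, 10.4 and 8.01 with TGFb1 + DMSO. It was at 1.04, 0.642 and 0.509 CPM with TGFb1 + CHIR, 10.2, 13.5 and 12.1 with TGFb1 + IL1b, and 6.51, 6.15 and 8.1 with TGFb1 + TNF. The 4 groups with TGFb1 and no CHIR lay above the other 3 groups in every library. Neighbours within each of these sets overlapped except DMSO and CHIR, and the highest and lowest means were 16.3-fold apart.

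Pcolce2 (ENSMUSG00000015354, chr9:95637601-95698096, plus strand) encodes a secreted protein that speeds the trimming of procollagen. It was at 46.9, 48.1 and 43.7 CPM with DMSO, 42.1, 44.2 and 40 with CHIR, 45.5, 36.1 and 32.6 with TGFb1, and 30.3, 30.8 and 30.1 with TGFb1 + DMSO. It was at 2.56, 2.96 and 2.04 CPM with TGFb1 + CHIR, 81.1, 80.2 and 75 with TGFb1 + IL1b, and 104, 112 and 114 with TGFb1 + TNF. Both groups with an added cytokine lay above all others, TGFb1 + CHIR lay far below all others, and their means were up to 43.7-fold apart. Clec3b (ENSMUSG00000025784, chr9:123150946-123157432, plus strand), tetranectin, a plasminogen-binding secreted lectin, was at 11.3, 10.3 and 11.3 CPM with DMSO and 3.84, 2.59 and 4.33 with CHIR. In the groups with TGFb1 it was nearly absent, between 10 and 22 counts a group and at most 0.571 CPM in a library, that highest value being TGFb1 replicate 2 with 16 counts against 2 and 1 in replicates 1 and 3. It passed the filter on low counts through the groups without TGFb1, so it had to differ between groups, and the counts of tested genes below are descriptions.

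**Figure D1:**
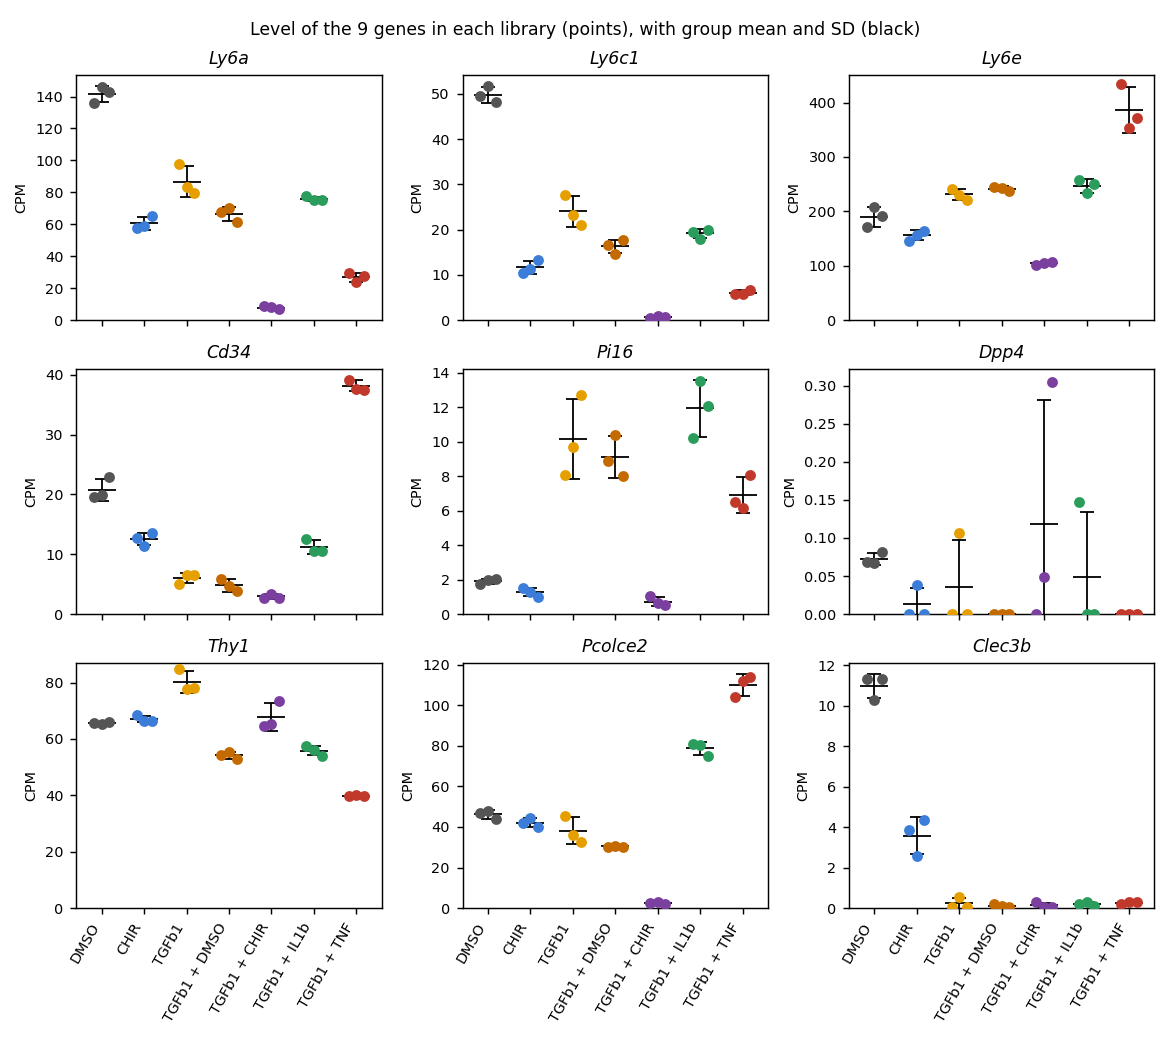
Level of the 9 genes in each library (points, CPM on linear axes that start at 0) by treatment group, with the group mean and SD in black (n = 3). Ly6a and Ly6c1 are highest with DMSO and lowest with TGFb1 + CHIR, Cd34, Ly6e and Pcolce2 are highest with TGFb1 + TNF, and Clec3b is near 0 in every group with TGFb1.

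The effect of TGFb1 in cells given the solvent was read from TGFb1 + DMSO against DMSO. Pi16 rose 4.78-fold, from 1.9 ± 0.151 to 9.09 ± 1.19 CPM (mean ± SD, n = 3; log2 fold change 2.26 ± 0.187, estimate ± SE, edgeR adjusted p = 2.22e-15), while Cd34 fell 4.32-fold (-2.11 ± 0.123), Ly6c1 3.06-fold (-1.61 ± 0.0946) and Ly6a 2.13-fold (-1.09 ± 0.069). Clec3b went from 11 ± 0.574 to 0.123 ± 0.0631 CPM, with 5, 3 and 2 counts in the TGFb1 + DMSO libraries. Its log2 difference of -6.44 ± 0.406, or -5.4 with TGFb1 without solvent, is a description, since the filter admitted it only through the groups without TGFb1. So among genes used as adventitial markers, Pi16 went up where Cd34, Ly6a and Ly6c1 went down. Smaller changes were a fall of Pcolce2 (-0.61 ± 0.0768) and of Thy1 (-0.28 ± 0.0563) and a rise of Ly6e (0.35 ± 0.0683, adjusted p = 0.000108). Of the 8 genes tested, 8 passed (Clec3b among them), 2 higher and 6 lower, in a comparison where 62.0% of all genes passed (30.7% higher and 31.3% lower). The median log2 fold change was -0.85 over the 8 and -0.02 over all genes tested. The direction for Thy1 depended on the control: TGFb1 without solvent against DMSO gave 0.29 (adjusted p = 1.12e-05).

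CHIR was set against DMSO to read its effect in cells not given TGFb1. Ly6c1 fell 4.3-fold (-2.1 ± 0.0991, adjusted p = 3.38e-24), Clec3b 3.07-fold (-1.62 ± 0.26) and Ly6a 2.34-fold (-1.23 ± 0.07). Cd34 fell 1.66-fold (-0.73 ± 0.112) and Ly6e 1.22-fold (-0.29 ± 0.0693, adjusted p = 0.00153). Thy1 (0.03 ± 0.056, adjusted p = 0.703), Pcolce2 (-0.13 ± 0.0756, 0.15) and Pi16 (-0.55 ± 0.241, 0.0592) did not pass. All 5 of 8 that passed were lower, in a comparison where 44.8% of genes passed (22.1% higher and 22.7% lower). With library size alone as scaling, 38.5% of the genes called were higher in place of 49.3%, and Pi16 (-0.62, adjusted p = 0.0318) and Pcolce2 (-0.2, 0.0242) then passed too. Pi16 also passed without CHIR replicate 1 (-0.7, adjusted p = 0.0433). The median over the 8 genes was -0.64 against -0.01 over all genes. This comparison and the one before share the DMSO libraries.

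TGFb1 + CHIR against TGFb1 + DMSO asked what CHIR does in cells given TGFb1, and here Ly6c1, Pcolce2, Pi16 and Ly6a were lowered most. Ly6c1 fell 23.5-fold (-4.55 ± 0.17, adjusted p = 1.74e-28), Pcolce2 12-fold (-3.59 ± 0.118), Pi16 11.9-fold (-3.58 ± 0.227) and Ly6a 8.43-fold (-3.07 ± 0.0914). Ly6e fell 2.31-fold (-1.21 ± 0.071) and Cd34 1.63-fold (-0.71 ± 0.158, adjusted p = 0.000201). Thy1 rose 1.25-fold (0.32 ± 0.0569), but against TGFb1 without solvent it was lower (-0.24, adjusted p = 0.000256). Clec3b, already at 10 counts a group, did not pass (0.28 ± 0.776, adjusted p = 0.814). Of 8 genes 7 passed, 1 higher and 6 lower, in a comparison where 43.3% of genes passed (20.8% higher and 22.5% lower), with a median of -2.14 over the 8 and 0.0 over all genes. In the same group the endothelial marker sum was highest, 24.8 to 26.8 CPM against 8.89 to 10.4 in TGFb1 + DMSO, most of it Kdr, and its part in these levels was not tested.

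Set against CHIR alone, TGFb1 + CHIR showed what TGFb1 does in cells given CHIR. Pcolce2 (-4.06 ± 0.115), Ly6c1 (-4.06 ± 0.178), Ly6a (-2.94 ± 0.0922), Cd34 (-2.09 ± 0.144) and Ly6e (-0.57 ± 0.0715) all fell, with adjusted p of at most 1.82e-07. Clec3b differed by -4.55 ± 0.446, given as a description for the reason above; without TGFb1 + CHIR replicate 1, which held 8 of the group's 10 counts, it was -6.02. Pi16, which rose with TGFb1 in the solvent, was lower here (-0.77 ± 0.297, adjusted p = 0.0198), though its libraries overlapped and the call was lost without CHIR replicate 1 (-0.62, adjusted p = 0.104) and without TGFb1 + CHIR replicate 2 (-0.68, 0.0721) or 3 (-0.58, 0.111). Thy1 did not pass (0.01 ± 0.0566, adjusted p = 0.856). All 7 that passed (Clec3b among them) were lower, in a comparison where 66.2% of genes passed (33.8% higher and 32.3% lower), and the median was -2.51 over the 8 and 0.01 over all genes.

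Whether CHIR acted differently with and without TGFb1 was tested as the difference between both CHIR effects. Pcolce2 had the largest difference: CHIR left it at 42.1 ± 2.12 CPM against 46.2 ± 2.32 with DMSO, but with TGFb1 at 2.52 ± 0.465 against 30.4 ± 0.372 (SD, n = 3), a difference of -3.45 ± 0.145 (SE, log2, adjusted p = 1.35e-24). The difference was -3.03 ± 0.35 for Pi16, -2.45 ± 0.222 for Ly6c1, -1.85 ± 0.117 for Ly6a and -0.92 ± 0.0989 for Ly6e. For Cd34 the CHIR effects were -0.73 and -0.71 and the difference was 0.02 ± 0.201 (adjusted p = 0.946). Thy1 differed the other way (0.29 ± 0.0798, adjusted p = 0.00237), but with TGFb1 in place of TGFb1 + DMSO the sign was opposite (-0.28, adjusted p = 0.00395). Clec3b did not pass (1.89 ± 0.858, adjusted p = 0.073), with 10 counts in each TGFb1 group; it passed without TGFb1 + CHIR replicate 2 (2.25, 0.041) or 3 (2.24, 0.0424). Of the 8 genes 6 passed, 1 higher and 5 lower, where 41.2% of all genes passed (21% higher and 20.3% lower), with medians of -1.39 and 0.03. Without the filter Dpp4 had an adjusted p of 0.0499 here, resting on 6 counts in 1 TGFb1 + CHIR library.

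**Figure D2:**
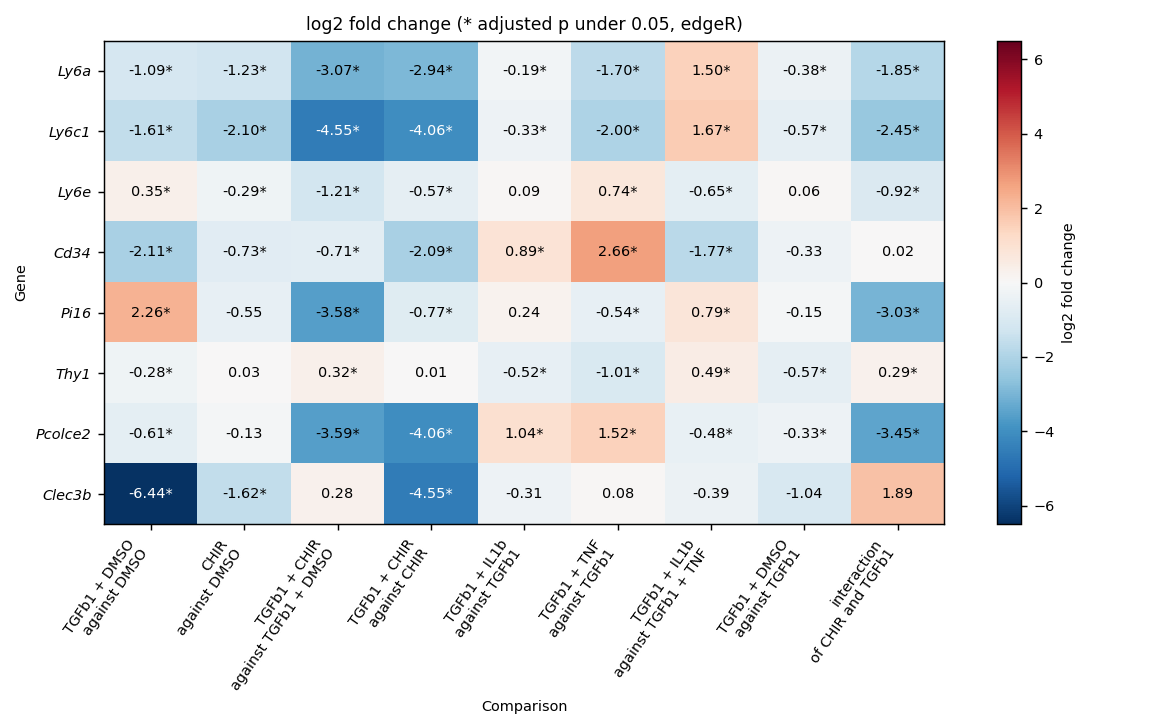
Log2 fold change (colour and number) of the 8 tested genes (rows) in each comparison (columns), red where the group named first is higher, with an asterisk for an edgeR adjusted p under 0.05. The column of TGFb1 + CHIR against TGFb1 + DMSO holds -4.55 for Ly6c1 and -3.59 for Pcolce2, and that of TGFb1 + TNF against TGFb1 holds 2.66 for Cd34 beside -2.0 for Ly6c1.

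TGFb1 + TNF against TGFb1 asked what TNF adds in cells given TGFb1, and it split these genes. Cd34 rose 6.32-fold, from 6.04 ± 0.81 to 38.1 ± 0.902 CPM (SD, n = 3; 2.66 ± 0.119, adjusted p = 1.49e-25), Pcolce2 rose 2.87-fold (1.52 ± 0.0744) and Ly6e 1.67-fold (0.74 ± 0.0679). Ly6c1 fell 4.0-fold (-2.0 ± 0.109, adjusted p = 4.5e-22), Ly6a 3.24-fold (-1.7 ± 0.0753) and Thy1 2.02-fold (-1.01 ± 0.0575). The Ly6 genes thus moved in opposite directions, with Ly6e up and Ly6a and Ly6c1 down. Pi16 was lower (-0.54 ± 0.161, adjusted p = 0.0034), with libraries that overlapped, and this call was lost without TGFb1 replicate 3 (-0.36, adjusted p = 0.073). Clec3b did not pass (0.08 ± 0.578, adjusted p = 0.92), but was called higher without TGFb1 replicate 2 (1.96, 0.037), the library with 16 of the 19 TGFb1 counts. Of the 8 genes 7 passed, 3 higher and 4 lower, where 56.6% of all genes passed (27.7% higher and 28.8% lower), with a median of -0.23 over the 8 and 0.0 over all genes. The endothelial marker sum was 16.4 to 17.2 CPM in TGFb1 + TNF against 6.68 to 8.86 in TGFb1, with Kdr and Cdh5 higher, and its part in the level of Cd34 was not tested.

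TGFb1 + IL1b against TGFb1 asked the same of IL1b. Pcolce2 rose 2.06-fold, from 38.1 ± 6.68 to 78.8 ± 3.25 CPM (SD, n = 3; 1.04 ± 0.0747, adjusted p = 5.1e-16), and Cd34 rose 1.86-fold (0.89 ± 0.127). Thy1 fell 1.44-fold (-0.52 ± 0.0561), Ly6c1 1.26-fold (-0.33 ± 0.0963, adjusted p = 0.00524) and Ly6a 1.14-fold (-0.19 ± 0.0696, adjusted p = 0.0278). Ly6e (0.09 ± 0.0681, adjusted p = 0.324), Pi16 (0.24 ± 0.155, 0.238) and Clec3b (-0.31 ± 0.606, 0.746) did not pass. Of the 8 genes 5 passed, 2 higher and 3 lower, where 34.6% of all genes passed (17.2% higher and 17.4% lower), with a median of -0.05 over the 8 and 0.0 over all genes. Without TGFb1 replicate 1, which had the highest Ly6a and Ly6c1 of its group, 3 passed, with Ly6a at -0.1 (adjusted p = 0.311) and Ly6c1 at -0.22 (0.111). Leaving out TGFb1 + IL1b replicate 2 or 3 also ended the Ly6a call (-0.19, adjusted p = 0.0806, and -0.18, 0.0818). Against TGFb1 + DMSO the same IL1b libraries were higher in Ly6a (0.19, adjusted p = 0.0291), and Ly6c1 (0.23, 0.0528) and Thy1 (0.04, 0.586) did not pass, so the direction for these 3 genes depended on the control.

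Because both cytokine groups share the TGFb1 control, they were also compared with each other. With IL1b in place of TNF, Ly6c1 was 3.18-fold higher (1.67 ± 0.11, adjusted p = 1.8e-18), Ly6a 2.83-fold (1.5 ± 0.0752), Pi16 1.73-fold (0.79 ± 0.158, 3.81e-05) and Thy1 1.4-fold (0.49 ± 0.0579). Cd34 was 3.4-fold lower (-1.77 ± 0.11, adjusted p = 1.84e-19), Ly6e 1.57-fold (-0.65 ± 0.0676) and Pcolce2 1.39-fold (-0.48 ± 0.0704). Clec3b did not pass (-0.39 ± 0.588, adjusted p = 0.629). Of the 8 genes 7 passed, 4 higher and 3 lower, where 47.6% of all genes passed (24.7% higher and 22.8% lower), with medians of 0.05 over the 8 and 0.01 over all genes. By this direct test Cd34 was thus higher, and Ly6a and Ly6c1 lower, with TNF than with IL1b.

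**Figure D3:**
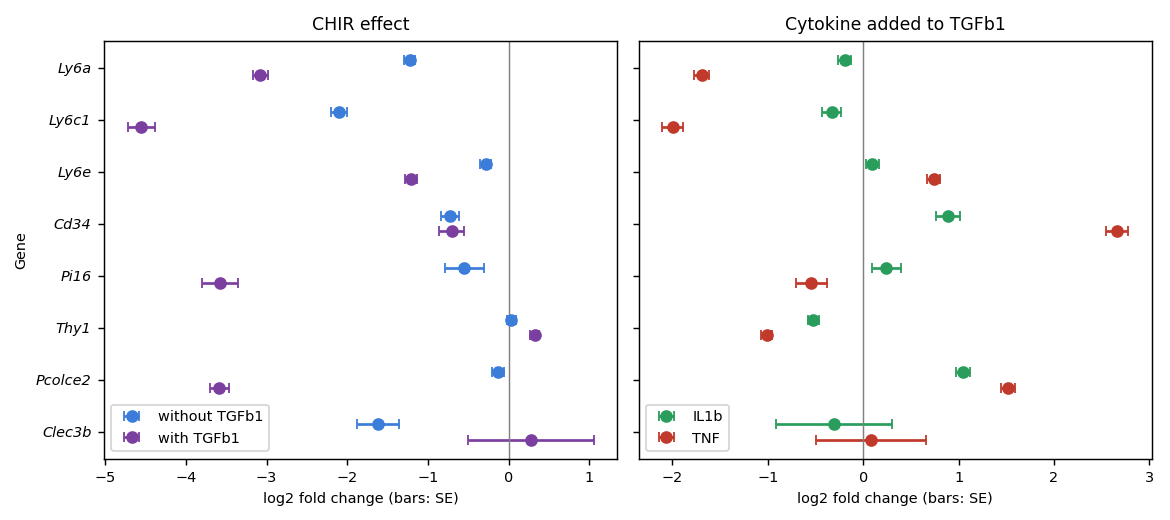
Log2 fold change of each tested gene (points, with SE bars from the edgeR fit) for CHIR without and with TGFb1 (left) and for IL1b or TNF added to TGFb1 (right), with a line at 0. CHIR points part widely for Pcolce2 (-0.13 and -3.59) and overlie for Cd34 (-0.73 and -0.71), and TNF points lie farther from 0 than IL1b points for Ly6a, Ly6c1 and Cd34.

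Both TGFb1 controls, with and without the solvent, differed in 4 of these genes. In TGFb1 + DMSO against TGFb1, Thy1 (-0.57 ± 0.0562, adjusted p = 3.05e-10), Ly6c1 (-0.57 ± 0.0976, 6.84e-05), Ly6a (-0.38 ± 0.0701, 0.000313) and Pcolce2 (-0.33 ± 0.0784, 0.00557) fell. Ly6e (0.06 ± 0.0682), Cd34 (-0.33 ± 0.139), Pi16 (-0.15 ± 0.158) and Clec3b (-1.04 ± 0.676) did not pass. All 4 of 8 that passed were lower, in a comparison where 6.13% of genes passed (2.33% higher and 3.8% lower), and the median was -0.36 over the 8 and 0.0 over all genes. With library size alone as scaling, 59.1% of the genes called were higher in place of 38.1%. The Pcolce2 call was lost without TGFb1 replicate 1 (-0.18, adjusted p = 0.202), Cd34 passed without TGFb1 + DMSO replicate 1 (-0.5, 0.043), and the count over all genes dropped from 993 to 646 without TGFb1 replicate 1. The labels do not say whether both groups were handled together, so solvent and handling cannot be told apart.

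Of 18 other genes listed for the chromosome 15 Ly6 cluster, 16 were in the table and 2 passed the filter, Lynx1 and Ly6i. Lynx1, which encodes a modulator of nicotinic acetylcholine receptors, averaged 67.5 CPM with DMSO, 61.3 with CHIR, 39.9 with TGFb1 + DMSO, 32.9 with TGFb1, 26.4 with TGFb1 + IL1b, 20.4 with TGFb1 + CHIR and 10.6 with TGFb1 + TNF. It fell in TGFb1 + CHIR (-0.96 ± 0.0775, adjusted p = 2.56e-15 against TGFb1 + DMSO) and TGFb1 + TNF (-1.63 ± 0.0834, 3.81e-23 against TGFb1), as Ly6a and Ly6c1 did, and was lowest with TNF where they were lowest with CHIR. Ly6i averaged 0.133 to 0.58 CPM in 6 groups and had no count in the 3 TGFb1 + CHIR libraries, which allows up to 0.0433 CPM over the group.

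The directions of 30 other adventitial fibroblast markers, 28 of them tested, were mixed. The share of all genes that passed is given beside each count, and nothing particular to the list is read from it. With TGFb1 + DMSO against DMSO 8 rose and 19 fell (median -0.77; 62.0% of all genes passed), among them Il33, an alarmin (-4.16 ± 0.261), Sfrp4, a Wnt antagonist (-3.73 ± 0.141), and Dcn, the proteoglycan decorin (-3.29 ± 0.0436). With CHIR against DMSO 10 rose and 13 fell (median -0.07; 44.8% of all genes), with Ackr3, a scavenging chemokine receptor, at -3.25 ± 0.156 and Col15a1, a basement-membrane collagen, at 2.9 ± 0.072. In TGFb1 + CHIR against TGFb1 + DMSO 8 rose, 11 fell and 9 did not pass (median -0.25, 43.3% of all genes). Among those that fell were Col15a1 (-3.45 ± 0.117), Ackr3 (-2.71 ± 0.121) and Col14a1, another collagen (-2.03 ± 0.0514). Col15a1 thus rose with CHIR alone and fell with CHIR beside TGFb1, a difference of -6.36 ± 0.133 in the interaction (adjusted p = 1.08e-33). With TNF added to TGFb1 10 rose and 14 fell (median -0.58; 56.6% of all genes). Of these, Col14a1 (-2.96 ± 0.0535), Sema3c, a secreted semaphorin (-2.62 ± 0.191), and Pdgfra, a growth factor receptor of fibroblasts (-2.47 ± 0.0455), fell and Il33 rose (1.96 ± 0.27). With IL1b 8 rose and 10 fell (median 0.02; 34.6% of all genes).

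Interferon-stimulated genes were counted beside Ly6a and Ly6e, both known to respond to interferon. Of 30 listed and tested, 22 rose and 1 fell in TGFb1 + DMSO against DMSO (median 1.09; 62.0% of all genes passed), where Ly6e rose and Ly6a fell. In TGFb1 + CHIR against TGFb1 + DMSO all 30 fell (median -2.79, 43.3% of all genes), led by Ifi44 (-6.3 ± 0.593) and Irf7 (-4.82 ± 0.537). Of the 8 tested genes described here 6 fell there (Ly6a, Ly6c1, Ly6e, Cd34, Pi16 and Pcolce2), while Thy1 rose and Clec3b did not pass. With TNF added to TGFb1 27 rose (median 1.17; 56.6% of all genes) and with IL1b 28 rose (median 1.01; 34.6%), with Cxcl10, a chemokine, at 2.4 ± 0.186 and 1.71 ± 0.186. With TNF, Ly6a fell (-1.7 ± 0.0753) and Ly6e rose (0.74 ± 0.0679). Whether the interferon-stimulated genes bear on the Ly6 genes was not tested.

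The genes with the most similar pattern were found by the root mean square (RMS) difference between group means of log2 CPM over the 7 groups, each gene centred on its own mean. For Ly6a these were Ephx2 (0.301), Pcyt1b (0.309) and Dbp (0.375), and for Ly6c1 Cxcl12 (0.479), Ephx2 (0.761) and Pcyt1b (0.788). Ly6a and Ly6c1 themselves were 0.538 apart: Ly6a ranked 2 among 16196 other genes by likeness to Ly6c1, and Ly6c1 ranked 14 by likeness to Ly6a. They share part of their sequence, as given above, and share these libraries, so the likeness is a description. Cxcl12, a chemokine of stromal cells, went from 2010 CPM with DMSO to 40.4 with TGFb1 + CHIR. Ly6e was nearest to Parp9 (0.15), Nemp1 (0.15) and Ddx58 (0.152), of which Ddx58 is in the interferon list. Ly6e and Ly6a were 1.18 apart: Ly6a ranked 14040 by likeness to Ly6e, and Ly6e ranked 2525 by likeness to Ly6a. The median over all genes was 0.676 for Ly6e, a gene of smaller range, and 1.34 for Ly6a.

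Cd34 was nearest to Hhip (0.263), Epha2 (0.352) and Hivep3 (0.416). Hhip, which encodes a hedgehog-binding protein, averaged 33.2 CPM with DMSO, 5.02 with TGFb1 + DMSO and 48.6 with TGFb1 + TNF. The nearest to Pi16 were Hr (0.499), Ifit1 (0.504) and Lrrc75b (0.505), of which Ifit1 is in the interferon list, as Ddx58 near Ly6e is. Those nearest to Pcolce2 were Ifi203 (0.319), Phf11d (0.431) and Parp14 (0.457). Thy1 was nearest to Gsn (0.101), Rpp25l (0.127) and Fndc4 (0.134), and as a gene of small range it was near to many, with a median of 0.503 over all genes. For Clec3b the nearest were Plpp3 (0.539), Plekhh2 (0.595) and Slc5a3 (0.649), all of them high in the 2 groups without TGFb1, such as Plpp3 at 725 and 864 CPM against 26.0 to 43.3 in the others.

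**Figure D4:**
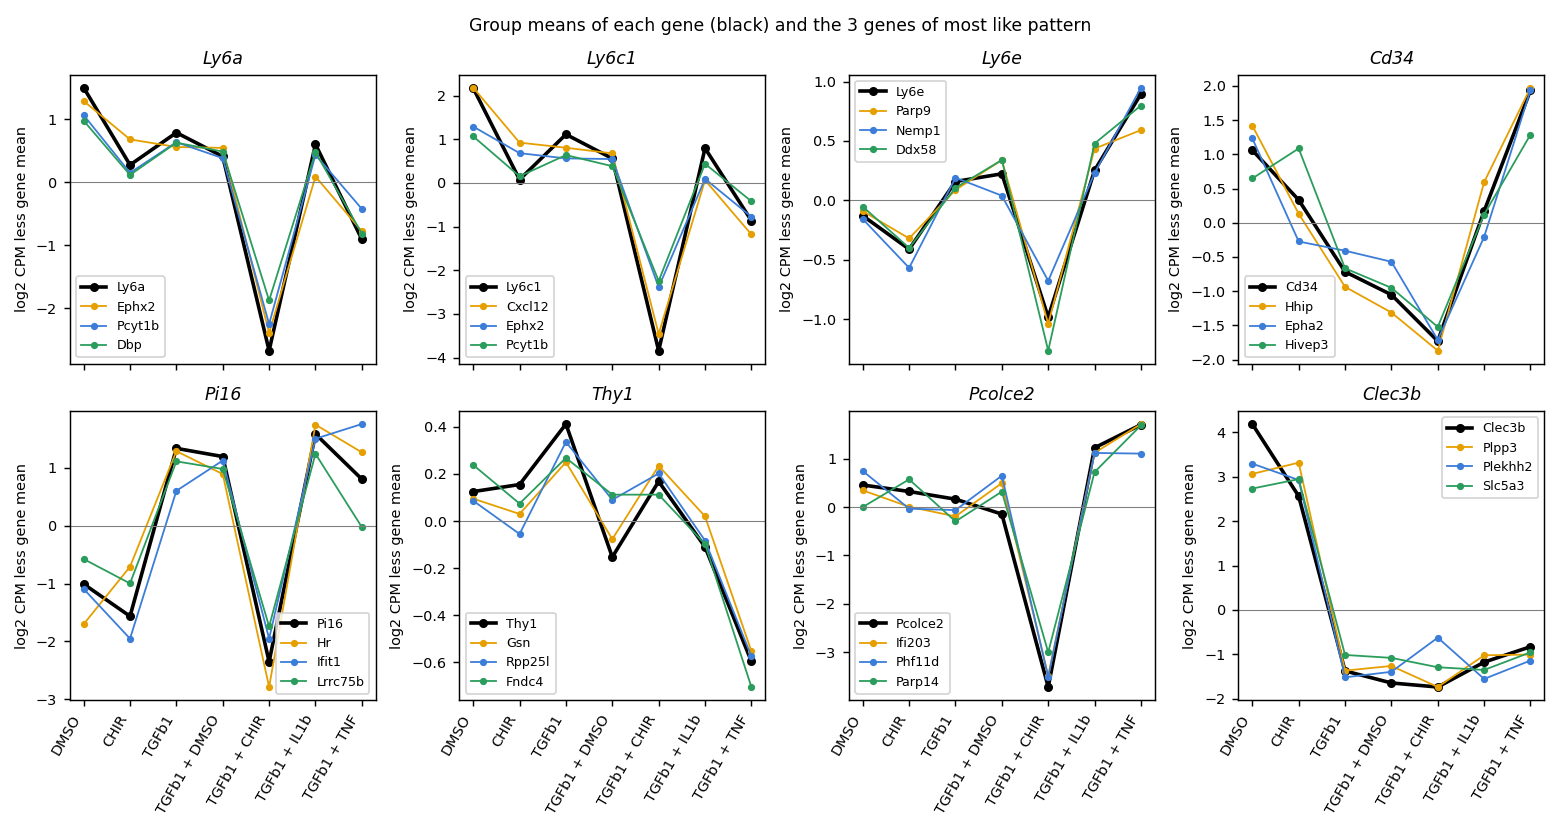
Group means of log2 CPM less the gene's own mean over the 7 groups (vertical axis, log2 units) for each tested gene (black) and the 3 genes of most like pattern (colours). Lines join groups for the eye only. Ly6a and Ly6c1 dip deepest in TGFb1 + CHIR, Cd34 and Hhip are highest in TGFb1 + TNF, and Clec3b drops in every group with TGFb1.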

How the data were processed

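The authors deposited unnormalised counts for 52636 genes in 21 libraries; which aligner, counter, strand setting and filters they used was not given in the sources used here. Total RNA was extracted with a Qiagen RNeasy kit and libraries made with an Illumina TruSeq stranded kit, per the labels' protocols. The builds GRCm38 and GRCh38 are named, per the submitters' processing notes, without roles. Symbols and positions came from GENCODE M21 (GRCm38), which names 52489 of the identifiers. All 21 single-library tables equalled their columns, and no libraries of the same group agreed within counting noise. Pairs from different groups were not checked.

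Tests used edgeR 4.0.16 in R 4.3.3 on genes passing filterByExpr, with TMM factors, 1 coefficient per group over all 21 libraries, robust quasi-likelihood F-tests, Benjamini-Hochberg adjustment over 16197 genes and a threshold of 0.05. Common biological variation was 0.0581 and the fit was tested on simulated data. The 9 genes are named in every group, and the 8 tested ones in every comparison. Other lists name up to 4 genes past the threshold with the largest change and a mean of at least 1 log2 CPM, of which some are given, and likeness used genes of at least 2 log2 CPM (prior count 2). The genes, lists and tests were chosen with earlier results of these data known. Alternatives were DESeq2 1.42.0, RLE factors, library size only, no filter, only the groups compared, Ly6c1 and Ly6c2 summed, leaving out each replicate, and the other TGFb1 control. The lists were the Ly6 cluster, adventitial, alveolar and fibrotic fibroblast markers, GPI anchor and interferon-stimulated genes. Depth limits Dpp4 and, with TGFb1, Clec3b; floors of 3 counts cover counting error only.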

Additional observations from a re-analysis of the deposited data

Results flagged for a closer look

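CHIR acted differently with TGFb1 than without it on 6 of the 8 tested genes, by the edgeR test of the difference between both CHIR effects, in which 41.2% of all genes passed. On the log2 scale the effect with TGFb1 less the effect without it was -3.45 for Pcolce2, -3.03 for Pi16, -2.45 for Ly6c1, -1.85 for Ly6a, -0.92 for Ly6e and 0.29 for Thy1. Pcolce2 and Pi16 showed no called change with CHIR alone. Ly6a, Ly6c1 and Ly6e fell in both settings, and further with TGFb1. The value for Thy1 took the opposite sign with the other TGFb1 control. Groups of 3 libraries were too small for the test of a single outlying library.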

How the results depend on the processing

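Over all alternatives, 947 results for single genes were recomputed. Of these, 901 kept their direction and side of the threshold, and 27 changed sign, with or without a change of call. With the direction kept, 9 lost the call and 10 gained one. Summing Ly6c1 and Ly6c2 alters only Ly6c1 among the tested genes, so its results for the others could hardly change. Sign changes of called values came with the other TGFb1 control: Thy1 at 0.29 in TGFb1 against DMSO, -0.24 in TGFb1 + CHIR against TGFb1, 0.04 with IL1b and -0.28 in the interaction, and Ly6a at 0.19 and Ly6c1 at 0.23 with IL1b. That control also turned values that did not pass: Clec3b to -0.77 with TGFb1 + CHIR and 0.74 with IL1b, and Cd34 to -0.3 in the interaction. The other sign changes were of values that passed in neither setting. Thy1 was at -0.04 in CHIR against DMSO with library size only; in TGFb1 + CHIR against CHIR it was at -0.02 with DESeq2 and RLE factors, -0.03 with library size only, -0.01 with only the groups compared and -0.04 without TGFb1 + CHIR replicate 3. Leaving out single libraries gave Clec3b values of -1.2 (TGFb1 + CHIR replicate 1) to 0.72 in TGFb1 + CHIR against TGFb1 + DMSO, -0.79 to 1.57 (TGFb1 replicate 2) with IL1b, -1.49 to 0.84 (TGFb1 replicate 2) with the solvent, and -0.37 to 1.96 with TNF, there below 0 or at 0.0 without TGFb1 replicate 1 or 3 (-0.29) or TGFb1 + TNF replicate 2 (-0.06) or 3. It gave Thy1 -0.04 to 0.05 in TGFb1 + CHIR against CHIR, Pi16 up to 0.03 with the solvent (TGFb1 replicate 3), and Cd34 in the interaction -0.12 to 0.2, with -0.04, -0.05, -0.07 and -0.12 for CHIR replicate 2, DMSO replicate 3, TGFb1 + CHIR replicate 2 and TGFb1 + DMSO replicate 3. Of the 8 genes, leaving out replicates gave 3 to 5 passed with IL1b, and for the solvent 646 to 884 genes passed over the whole table. For Clec3b in the interaction DESeq2 gave 1.87 (adjusted p = 0.0496) and a fit of only the groups compared 1.9 (0.0391). Pi16 with IL1b passed against TGFb1 + DMSO (0.39, adjusted p = 0.0388). The causes were not tested. No scaling moved the median of all genes by over 0.1. No paired analysis was possible because the labels pair no libraries and their replicates were numbered only in record order. Low counts limit Dpp4, and Clec3b and Ly6c1 where they are nearly absent.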

Other observations

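Markers of other fibroblast classes are given with the share of all genes that passed in the same comparison, and nothing particular to a class is read from them. Of 12 markers of fibrotic and peribronchial fibroblasts, 8 rose and 2 fell in TGFb1 + DMSO against DMSO (median log2 fold change 1.04, 62.0% of all genes passed). Lrrc15, a surface protein of activated fibroblasts, was at 6.52 ± 0.188, Spp1, osteopontin, at 3.53 ± 0.0997 and Mustn1 at -3.1 ± 0.0799 (edgeR, n = 3 per group). In TGFb1 + CHIR against TGFb1 + DMSO 6 rose and 5 fell (43.3% of all genes), with Lgr6 at -2.66 ± 0.134 and Spp1 at -1.19 ± 0.0906. Lrrc15 was at 319 CPM against 30.0 (3.42 ± 0.0865), in the libraries where Ly6a and Ly6c1 were lowest. With TNF added to TGFb1 4 rose and 8 fell (56.6% of all genes), with Lrrc15 at -3.16 ± 0.108 but Hhip at 2.92 ± 0.112 and Spp1 at 2.11 ± 0.0923. With IL1b 5 rose and 5 fell (34.6%). Of 12 alveolar fibroblast markers 8 were tested, beside the same shares of all genes. With TGFb1 + DMSO against DMSO 2 rose and 6 fell (median -3.23), with Limch1 at -4.37 ± 0.154. With TGFb1 + CHIR against TGFb1 + DMSO 4 rose, 1 fell (Limch1, -1.84 ± 0.271) and 3 did not pass (median 0.35). There Wnt2, a Wnt ligand, went from 4.2 to 74.2 CPM (4.14 ± 0.152) and Npnt, the matrix protein nephronectin, from 1.34 to 15.2 (3.5 ± 0.204).

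Ly6a, Ly6c1, Ly6e and Thy1 encode GPI-anchored proteins. Of 25 tested genes for making or releasing the anchor, 6 rose and 6 fell with TGFb1 + DMSO against DMSO (62.0% of all genes passed) and 9 rose and 2 fell with CHIR against DMSO (44.8%). With TGFb1 + CHIR against TGFb1 + DMSO 1 rose and 4 fell (43.3%), and with TNF 5 rose and 9 fell (56.6%). The medians lay between -0.11 and 0.12, and the shares that passed were near or below those of all genes. RNA levels do not give the amount of protein on the surface.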
